A study of Mus musculus with 2 samples.

Results

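Structural myelin proteins are represented here by 9 genes, Mbp, Mobp, Mog, Mag, Cnp, Mal, Cldn11, Opalin and Pllp, and by the Olig2-occupied peaks for which one of them was the nearest gene in the deposited list. These peaks numbered 19 of 4215. They belonged to 8 of the 9 genes, and Pllp was the nearest gene of no peak. The Olig2 ChIP was made with a polyclonal anti-Olig2 antibody from the whole spinal cords of C57BL/6 males that were 6 weeks old, and sheared chromatin of the same tissue formed the Input Control, which is not analysed here. Mice were neither treated nor genetically altered, several cords were pooled for each IP, and the authors pooled independent experiments before they called peaks. There was therefore 1 list of peaks with no replicate, and differences between peaks are given as descriptions without a test. Chromatin came from all cells of the cord, so the list does not say in which cells a site was occupied, and it holds no expression values with which the tissue could be checked by its markers.

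Olig2 is a basic helix-loop-helix transcription factor of the oligodendrocyte (OL) lineage, and factors of this class bind E-boxes, short sequences written CANNTG. The list gives hits of sequence motifs in each peak, and the one whose most frequent word, AGCAGCTG, holds an E-box is called the E-box motif here. Myelin is the stack of membrane that OLs wrap around axons of the CNS. Mbp and Mobp are basic proteins that lie between the cytoplasmic faces of compact myelin, Mal and Pllp are tetraspan proteins of its lipid-rich membrane, and Cldn11 forms the tight junctions that run between its layers. Cnp is an enzyme of the cytoplasm-filled channels of non-compact myelin, Mag faces the axon, Mog lies on the outer surface of the sheath, and Opalin is a transmembrane glycoprotein of CNS myelin.

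Olig2 occupied sites near most of these genes, and mostly away from their promoters. Of the 9 genes, 8 had 1 or more peaks (88.9%, exact 95% confidence interval 51.8 to 99.7%), while 14.2% of the 21774 protein-coding genes in the RefSeq annotation of GRCm38 had 1. Mbp and Cnp had 4 peaks each, Cldn11 had 3, Mobp, Mal and Opalin had 2, and Mog and Mag had 1. Thus 6 of the 8 genes had at least 2 peaks and 2 of the 8 had at least 4, against 16% and 1.01% of all protein-coding genes with a peak. Intervals are Clopper-Pearson intervals that account for counting error alone, and peaks of the same gene are not replicates of each other. The paper names the 8 genes with a peak as Olig2 targets. All 9 genes, and the other gene lists below, were chosen with earlier results of these data known. Shares with a peak and counts of peaks per gene are therefore not independent of the peak list, whichever assignment is used.

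A promoter peak is one that the list annotates to a promoter, and every other peak is called distal. Promoter peaks made up 3 of the 19 (15.8%, 95% confidence interval 3.38 to 39.6%), against 37.3% of the 4212 nuclear peaks, which lies within that interval. They lay at Mbp, Cnp and Cldn11, between 53 and 158 bp upstream of a transcription start site (TSS). The remaining 16 were distal, with a median distance of 18449 bp from the TSS and a range of 2124 to 64041 bp, and the median of all 2640 distal peaks was 21892 bp. Of the distal peaks, 9 of 16 (56.2%) lay downstream of the TSS, against 63.8% of all distal peaks. Mobp, Mog, Mag, Mal and Opalin had distal peaks only, so that 3 of the 8 genes had both kinds, where 5.52% of the protein-coding genes with a peak did. Both kinds require at least 2 peaks. Of the 493 protein-coding genes with at least 2, 170 had both kinds, and of the 6 members with at least 2, 3 did.

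**Figure D1:**
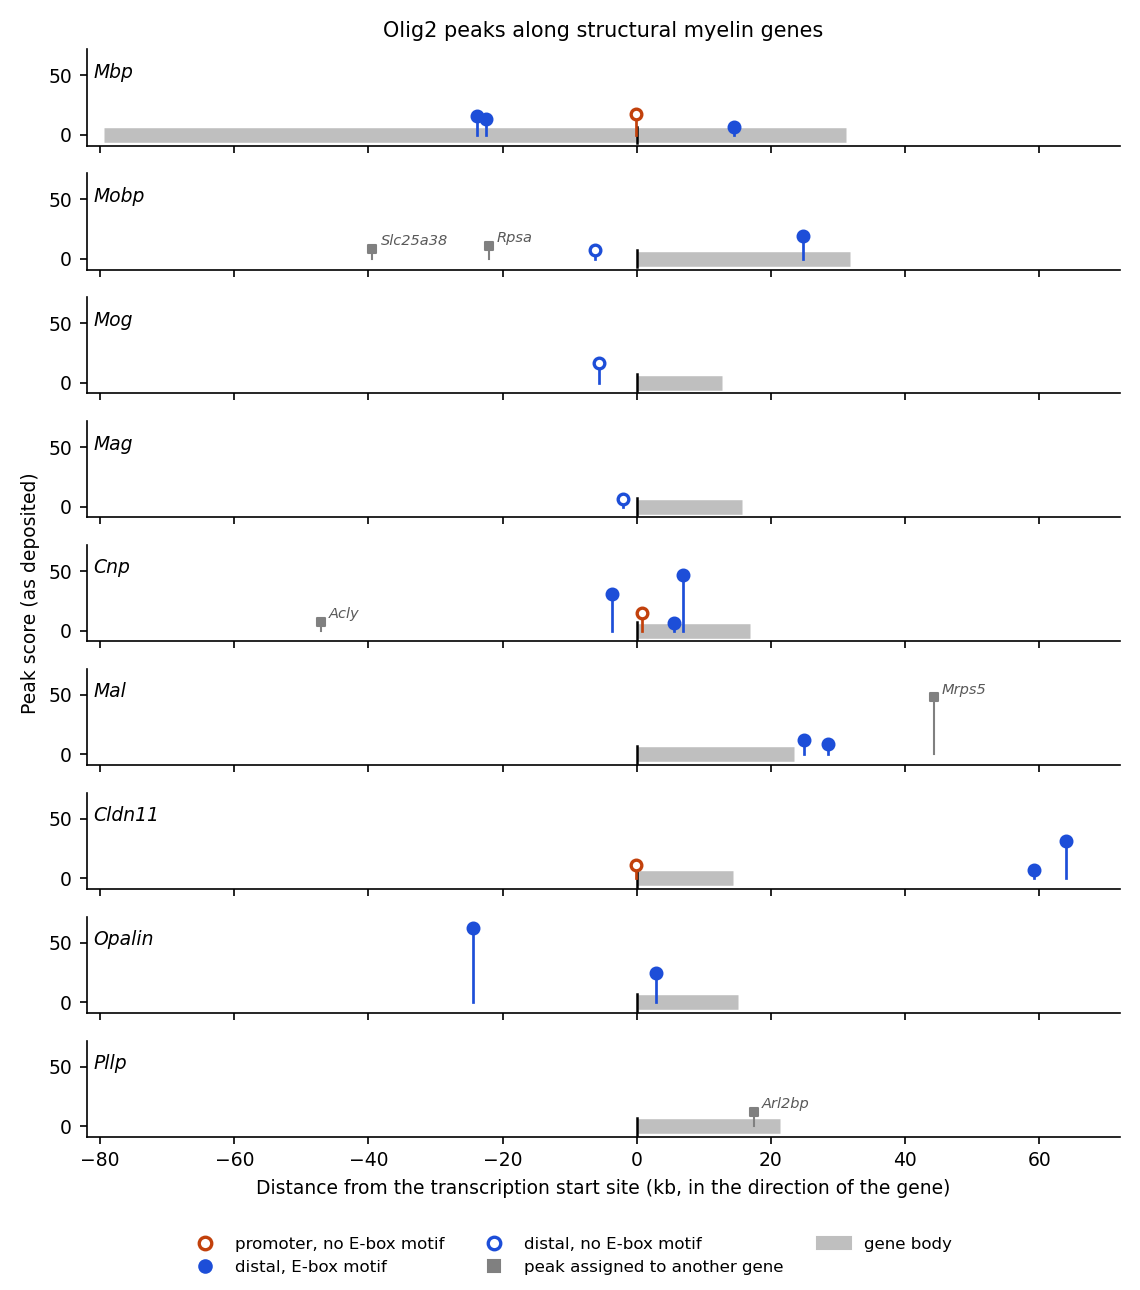
Olig2 peaks along the 9 genes, with the distance from the TSS in kb on the horizontal axis (the direction of the gene runs to the right) and the deposited peak score on the vertical axis. Where deposited distances of a gene refer to several starts, the most upstream is used, so the Cnp promoter peak is drawn 796 bp downstream. Orange marks promoter peaks, blue distal peaks, a filled circle the E-box motif, and grey squares peaks that the list assigns to another gene. The highest peak, with a score of 62.5, stands 24470 bp upstream of Opalin, and Pllp has no peak of its own but 1 in its body that is assigned to Arl2bp.

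Olig2 occupied Mbp at the promoter of its classic transcripts and at 3 intronic sites. The gene is unusual in having a second, far upstream TSS that gives rise to the golli transcripts, which run through the classic promoter. The promoter peak had a score of 17.4 and lay 158 bp upstream of the classic TSS at position 82554463 (chr18:82554280-82554330), inside an intron of the golli transcripts. A pair of peaks lay 1414 bp apart at -23812 bp (chr18:82530626-82530676, score 16.1) and -22398 bp (chr18:82532040-82532090, score 13.4). Relative to the golli TSS at position 82475123 the pair lay 55528 and 56942 bp downstream, in an intron of those transcripts. No peak of the list lay closer to the golli TSS. The last peak, at +14500 bp in an intron of the classic gene, was the weakest (chr18:82568983-82569033, score 6.71). The E-box motif was called in the 3 distal peaks and not in the promoter peak.

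Scores are the peak caller's and their scale is not named, so they are read by order within the list. The Mbp promoter peak ranked 1271 of the 4212 nuclear peaks and stood above 75.3% of promoter peaks. The intronic pair stood above 62.2% and 52.0% of distal peaks. The weakest peak of Mbp shared its score of 6.71 with the Mag peak and the weakest Cnp peak, and in all 68 nuclear peaks had this value.

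Mobp was occupied upstream of the gene and toward its 3′ end, not at the TSS. Its stronger peak lay at +24852 bp (chr9:120174569-120174619) with a score of 18.8, above 69.7% of distal peaks. The list annotates it to the 3′ UTR of 1 transcript, and it is intronic in others. The weaker peak lay at -6230 bp in intergenic sequence (chr9:120143487-120143537) with a score of 7.74, above 21.5% of distal peaks. Peaks with scores of 10.9 and 8.31 in the promoters of Rpsa, a ribosomal protein, and Slc25a38, a mitochondrial carrier, lay 22042 and 39394 bp upstream of Mobp and neither carried the E-box motif.

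The E-box motif was called in the stronger Mobp peak and not in the weaker one. In 30 bases of the stronger peak, cut short because it is 3′ UTR sequence, E-boxes are in capitals, and in the weaker peak the capitals mark a word of 16 bases that occurs 2 times at an offset of 21 bases. These and all later sequences are the plus strand of the GRCm38 reference.
Mobp +24852, chr9:120174583-120174612: cttgcttgtaccCATCTGtaCACTTGctgt
Mobp -6230, chr9:120143487-120143537: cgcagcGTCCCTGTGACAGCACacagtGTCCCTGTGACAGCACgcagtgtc

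Mal was occupied beyond its 3′ end. Both of its peaks were intergenic, at +24913 bp (chr2:127631757-127631807, score 12.4) and +28534 bp (chr2:127628136-127628186, score 8.90), which is 1444 and 5065 bp past the end of the gene. They stood above 47.9% and 28.2% of distal peaks. Farther on, 20826 bp past the end of Mal and 44295 bp from its TSS, lay a peak with a score of 48.1, rank 173. The list assigns it to Mrps5, a protein of the mitochondrial ribosome, whose TSS was 24974 bp away by the deposited distance. It carried the E-box motif although its 51 bp hold no CANNTG.

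The 2 Mal peaks differ in what the E-box motif was called on. In the stronger one the hit holds CATCTG, which is CAGATG on the other strand, and in the weaker one the hit, in capitals, has no E-box.
Mal +24913, chr2:127631757-127631807: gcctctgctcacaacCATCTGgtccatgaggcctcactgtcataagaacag
Mal +28534, chr2:127628136-127628186: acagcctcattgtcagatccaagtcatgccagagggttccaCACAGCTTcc

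Pllp, the relative of Mal in this group, was the nearest gene of no peak, but a peak did lie within it. The peak was in intron 2 of 3 of Pllp, 17410 bp from its TSS (chr8:94678807-94678857), and it is assigned to Arl2bp, a binding protein of a small GTPase, because that TSS was 11741 bp away. Its score was 12.1, rank 2055, and the E-box motif was not called in it. Of the 18692 protein-coding genes that were nearest to no peak, 2.13% held a peak in their body. When every peak within 50 kb of a TSS counted for a gene, or every peak within 10 kb of the gene body, all 9 members had a peak, against 30.5% and 19% of protein-coding genes. In place of the E-box motif the peak within Pllp held 2 hits of the CCAAT-like motif described with the promoter peaks, in capitals, and both hits hold ACAAT.
Pllp intron 2, chr8:94678807-94678857: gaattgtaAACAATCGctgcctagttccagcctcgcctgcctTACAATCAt

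Cldn11 had a promoter peak and, far downstream, a stronger and a weaker distal peak. The promoter peak lay at -53 bp (chr3:31149842-31149892) and had a score of 11.4, close to the middle of all promoter peaks, 53.5% of which were lower. The highest peak lay at +64041 bp (chr3:31213936-31213986) and had a score of 31.3, rank 453. Its neighbor at +59238 bp (chr3:31209133-31209183), 4803 bp away, had a score of 7.41. Both lay within Slc7a14, a transporter-family gene on the opposite strand, the stronger in intron 7 of 7 and the weaker in exon 8 of 8, in coding sequence. Cldn11 was nonetheless the closest protein-coding TSS, because the curated TSS of Slc7a14 lay 96358 bp from the stronger peak, and a lncRNA gene of the current annotation, Gm33834, started 18983 bp from it.

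Among the 3 Cldn11 peaks the E-box motif was in the distal ones only, as in Cnp, and over the whole list it was also more frequent in distal peaks. Capitals mark the hit of a CCAAT-like motif in the promoter peak, an E-box in the highest peak, and the hit of the E-box motif, which holds no CANNTG, in the coding exon.
Cldn11 -53, chr3:31149842-31149892: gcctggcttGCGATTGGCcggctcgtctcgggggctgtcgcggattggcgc
Cldn11 +64041, chr3:31213936-31213986: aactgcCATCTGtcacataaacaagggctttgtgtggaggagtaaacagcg
Cldn11 +59238, chr3:31209133-31209183: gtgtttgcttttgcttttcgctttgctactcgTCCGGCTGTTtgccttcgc

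Cnp was the most densely occupied of the genes, with 4 peaks in which each lay within 4460 bp of another. The highest, with a score of 46.5, above 93.9% of distal peaks, lay at +5969 bp (chr11:100581835-100581885). It was 121 bp past the 3′ end of the curated Cnp transcripts and 958 bp from that of Dnajc7, a chaperone cofactor gene that runs the other way, and the list annotates it to the Dnajc7 end. In the current annotation it is also intronic in a predicted, longer Cnp transcript. The second had a score of 30.8, rank 474, and lay 3664 bp upstream of the first curated Cnp TSS (chr11:100571250-100571300), in intron 11 of 11 of Ttc25, 1291 bp from the end of that gene. The promoter peak had a score of 14.8 and lay at -156 bp (chr11:100575710-100575760). It belonged to the downstream one of 2 curated starts, at position 100575891, and lay 796 bp into the transcript that starts at position 100574939, in its intron. The weakest, at +4528 bp, lay in the coding part of exon 4 of 4 (chr11:100580394-100580444, score 6.71). A peak in the 5′ UTR of Acly, an enzyme that makes acetyl-CoA in the cytosol, lay 47052 bp away with a score of 7.41.

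Scores and E-boxes did not go together within Cnp. The highest and the weakest peak both hold CAGCTG, the second highest holds CATATG, and the promoter peak holds no E-box but a hit of the CCAAT-like motif, in capitals.
Cnp +5969, chr11:100581835-100581885: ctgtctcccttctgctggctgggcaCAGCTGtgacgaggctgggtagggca
Cnp -3664, chr11:100571250-100571300: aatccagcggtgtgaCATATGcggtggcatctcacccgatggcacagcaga
Cnp -156, chr11:100575710-100575760: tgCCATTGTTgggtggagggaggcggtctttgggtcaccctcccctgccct
Cnp +4528, chr11:100580394-100580444: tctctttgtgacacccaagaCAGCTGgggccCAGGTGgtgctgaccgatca

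Mag and Mog, the immunoglobulin-family proteins of the inner and outer faces of the sheath, had 1 peak each, upstream of the gene. The Mog peak lay at -5610 bp, in the interval between Mog and Gabbr1, the TSS of which was 16958 bp away (chr17:37028983-37029033). Its score was 16.5, above 63.6% of distal peaks. The Mag peak was given at -2124 bp, and lay 2034 bp from the closest TSS in the current annotation, between Mag and Hamp2 (chr7:30916931-30916981). With a score of 6.71 it stood above 15.8% of distal peaks. Neither peak carried the E-box motif or any CANNTG, and the hits of the CCAAT-like motif are shown in capitals.
Mog -5610, chr17:37028983-37029033: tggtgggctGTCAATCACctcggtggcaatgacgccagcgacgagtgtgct
Mag -2124, chr7:30916931-30916981: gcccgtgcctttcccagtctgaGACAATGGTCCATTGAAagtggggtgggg

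Opalin had the strongest peak of the group and a second that was stronger than the 3 promoter peaks of these genes. The first had a score of 62.5, rank 83 of 4212, above 97.3% of distal peaks. It lay at -24470 bp (chr19:41101558-41101608) in intron 13 of 20 of Tll2, a metalloprotease gene next to Opalin on the same strand, 20633 bp from the 3′ end of Tll2. The second had a score of 24.6, rank 709, and lay in intron 1 of 5 of Opalin at +2805 bp (chr19:41074283-41074333). Both carried the E-box motif with CAGCTG, which occurs 2 times in the stronger peak and 1 time in the weaker.
Opalin -24470, chr19:41101558-41101608: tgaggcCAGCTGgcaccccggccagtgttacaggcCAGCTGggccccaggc
Opalin +2805, chr19:41074283-41074333: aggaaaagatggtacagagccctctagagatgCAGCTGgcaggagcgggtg

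Between genes, the order of the highest peak was Opalin (62.5), Cnp (46.5), Cldn11 (31.3), Mobp (18.8), Mbp (17.4), Mog (16.5), Mal (12.4) and Mag (6.71). The peaks of the list carry no replicate error, so it cannot be said whether neighbors in this order, such as Mobp, Mbp and Mog, differ. Of the 19 peaks, 12 (63.2%) scored at or above the nuclear median of 11.6, and their own median was 14.8. Scores of at least 20 were reached by 5 of the 19, 2 of Opalin, 2 of Cnp and 1 of Cldn11, against 24.9% of nuclear peaks. All 5 were distal and carried the E-box motif, while among all nuclear peaks with such scores 29% were promoter peaks and 71.9% carried the motif. The 5 peaks are few and come from 3 genes. The 71.9% includes promoter peaks, and the share among distal peaks with such scores was not computed.

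**Figure D2:**
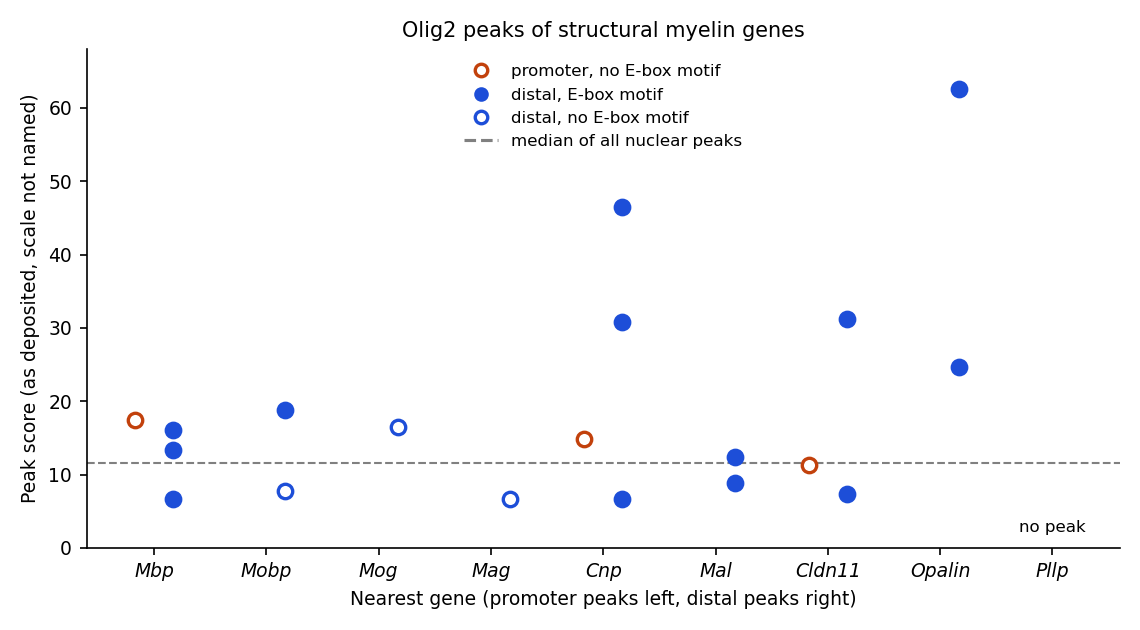
Deposited peak score of each of the 19 peaks by nearest gene, with promoter peaks left and distal peaks right. The dashed line is the median of all nuclear peaks, 11.6, and the 5 peaks above 20 are distal peaks of Cnp, Cldn11 and Opalin.

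No direction between promoter and distal scores held over these genes. The 3 promoter peaks had scores of 17.4 at Mbp, 14.8 at Cnp and 11.4 at Cldn11. The 16 distal peaks ran from 6.71 to 62.5 with a median of 14.7, so that all 3 promoter scores lay inside the distal range. The promoter median exceeded the distal median by 0.11, while over all nuclear peaks the promoter median of 10.7 lay below the distal median of 12.5, a difference of -1.77. The sign of the difference among the myelin genes was not stable, since it was -3.40 without Mbp, -6.87 when a score of 10 was required, and -16.8 as the mean over genes of the promoter score minus the highest distal score. Within the 3 genes with both kinds, the promoter score minus the highest distal score was 1.298 for Mbp, -31.7 for Cnp and -19.9 for Cldn11, with 1 promoter peak set against the highest of 2 or 3 distal peaks. Cnp and Cldn11 also had a distal peak below the promoter peak, with scores of 6.71 and 7.41. In 2 of these 3 genes the highest distal peak was above the promoter peak, against 53.5% of the 170 protein-coding genes with both kinds.

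**Figure D3:**
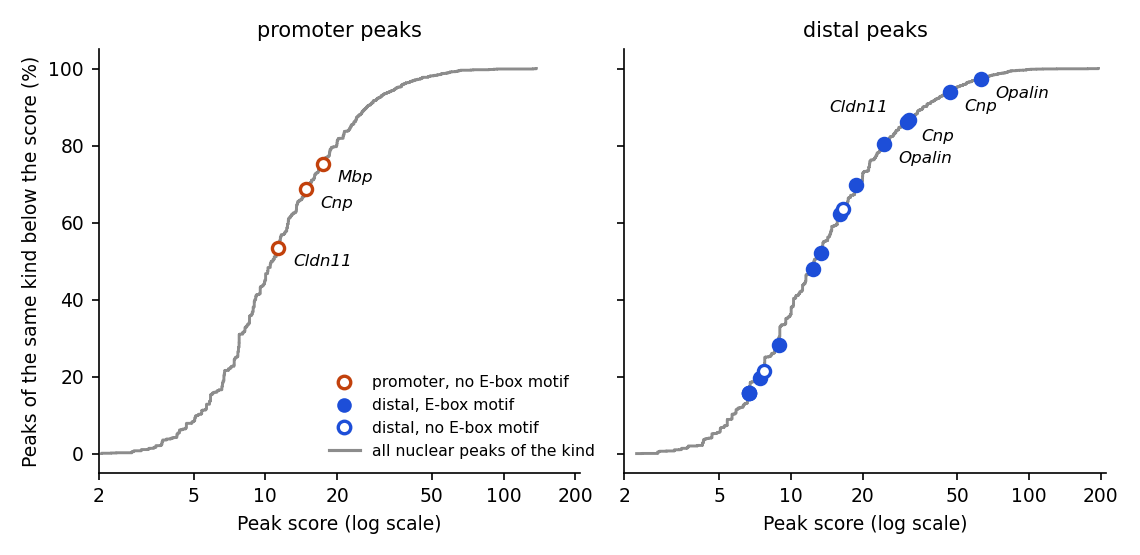
Peak score (horizontal axis, log scale) against the share of peaks of the same kind with a lower score, for promoter peaks on the left and distal peaks on the right. Grey lines are all nuclear peaks of the kind and circles the myelin gene peaks, of which the 3 promoter peaks lie above 53.5 to 75.3% of promoter peaks and the distal peaks above 15.8 to 97.3% of distal peaks.

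The E-box motif was called in most distal peaks of these genes and in no promoter peak, a difference in the same direction as over the whole list. The shares over the list lay within the intervals of both kinds. It was called in 0 of the 3 promoter peaks (95% confidence interval 0 to 70.8%) and in 13 of the 16 distal peaks (81.2%, 54.4 to 96.0%), against 32.1% of all promoter peaks and 76.7% of all distal peaks. Over both kinds this was 13 of 19 (68.4%, 43.4 to 87.4%), against 60% of nuclear peaks. The motif was derived by the authors from these same peaks, so its presence is not independent of the list. The distal peaks without it were those of Mog and Mag and the weaker one of Mobp, with scores of 16.5, 6.71 and 7.74. The 13 with it had a median score of 16.1 and a range of 6.71 to 62.5.

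Searching the 51 bp of each peak on both strands for CANNTG itself gave a difference in the same direction with fewer peaks. CANNTG was found in 0 of 3 promoter peaks and 11 of 16 distal peaks (68.8%, 41.3 to 89.0%), against 25.6% of all promoter and 67.5% of all distal peaks, and in 11 of 19 peaks together, against 51.9% of nuclear peaks. In the 11 peaks the closest E-box lay between 2.5 and 16.5 bp from the peak center with a median of 7.5 bp, against a median of 9.5 bp over all 2185 nuclear peaks with one. In a wider window of 200 bp, 2 of the 3 promoter peaks and 14 of the 16 distal peaks held CANNTG, against 56.2% of all promoter and 88.8% of all distal peaks.

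The forms of the E-box in the 51 bp differed from gene to gene, with few peaks behind each form, so that differences from the list are uncertain. CAGATG, or CATCTG on the other strand, was in 5 peaks of Mbp, Mobp, Mal and Cldn11 (26.3% of 19), against 14.2% of nuclear peaks. Both peaks of the Mbp pair were among them. CAGCTG, the most frequent form of the list, was in 4 peaks and only those of Cnp and Opalin (21.1%, 95% confidence interval 6.05 to 45.6%), against 32.9% of nuclear peaks. In 200 bp it was in 7 peaks (36.8%), among them the highest Cldn11 peak, the Mog peak and the Cnp promoter peak, against 46.8% of nuclear peaks. CATATG was in 1 peak of Cnp and 1 of Mbp, against 1.33% of nuclear peaks. The scores of the CAGCTG peaks were 62.5, 46.5, 24.6 and 6.71, and over all nuclear peaks with this form the median was 13.8.

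**Figure D4:**
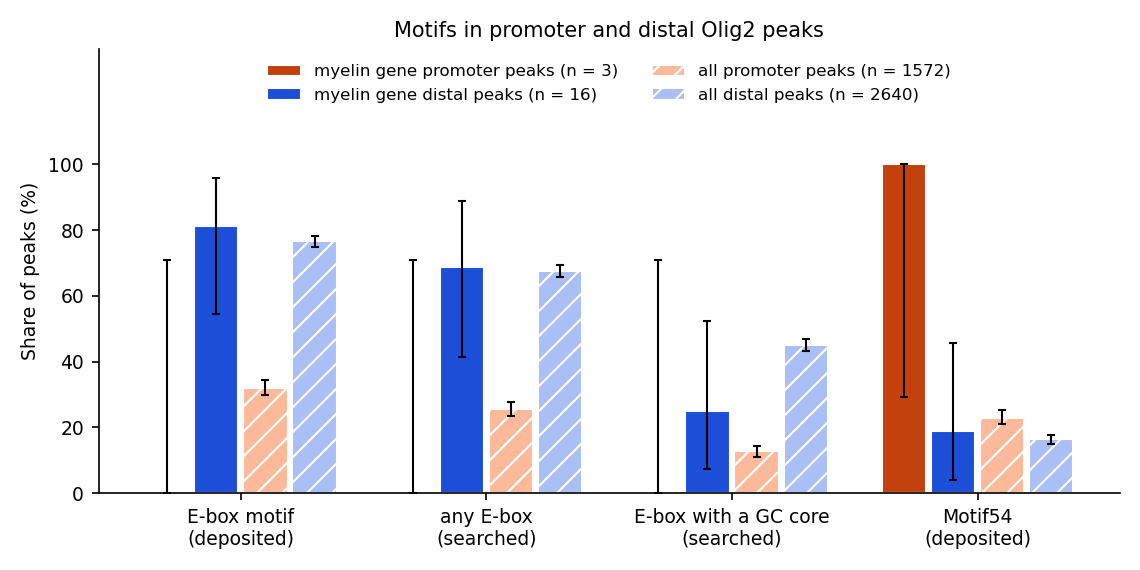
Share of peaks in percent that hold the E-box motif, any E-box, an E-box with a GC core (CAGCTG) and the CCAAT-like motif (Motif54 in the list), in 51 bp. Solid bars are myelin gene peaks and hatched bars all nuclear peaks, promoter peaks in orange and distal peaks in blue, with exact 95% confidence intervals. The E-box motif is in 0 of 3 promoter and 13 of 16 distal myelin gene peaks, and the CCAAT-like motif in 3 of 3 and 3 of 16.

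In place of the E-box motif, all 3 promoter peaks held a hit of another deposited motif, whose most frequent word is TGATTGGC and which is called CCAAT-like here. It was in 3 of 3 promoter peaks (95% confidence interval 29.2 to 100%) and 3 of 16 distal peaks (18.8%, 4.05 to 45.6%), namely those of Mog and Mag and the weaker one of Mal. Over all nuclear peaks it was in 18.9%, and over promoter peaks in 23%. The hits were not alike. Only that of the Cldn11 promoter holds CCAAT, which 72.9% of all promoter peaks with this motif have. Those of the Mbp and Cnp promoters and of the Mag and Mal peaks hold ACAAT, or ATTGT on the other strand, the core sequence known to be recognised by Sox proteins, while the Mog hit holds neither. ACAAT was in the hits of 18 of the 362 promoter peaks with the motif (4.97%) and of 124 of the 432 distal peaks with it (28.7%). Anywhere in the 51 bp it was in 2 of the 3 myelin gene promoter peaks, against 3.82% of all promoter peaks, and in 2 of the 16 distal peaks (12.5%), against 10.5% of all distal peaks. Together this was 4 of 19, against 8% of nuclear peaks. The ACAAT core was looked for after the hits had been seen, and a match of letters is not evidence that a factor binds there.

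Base composition differed among the 3 promoter peaks. The Cldn11 promoter peak had a GC content of 72.5% and a CpG content of 14.0%, above the medians of 64.7% and 8% of all promoter peaks. The promoter peaks of Mbp and Cnp had GC contents of 50.98% and 64.7% and a CpG content of 2% each, equal to the median CpG content of all distal peaks.

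E-boxes were also counted at the annotated promoters, whether or not these had a peak. RefSeq promoter windows of GRCm38, from 250 bp before to 50 bp after a start, covered 8 of the 9 genes in 10 windows. The 3 windows of Mag are close to each other and overlap in part, so the same E-box can be counted more than once. CANNTG was in 6 of the 10, against 72.3% of 32851 windows of all genes, and CAGCTG in 1, that of Opalin, against 16.3%. The windows of Mal, Cldn11, Mobp and Mog held no CANNTG, those of Mag held 1 or 2, that of Pllp 2, that of Cnp 1 and that of Opalin 3. Mbp had no window, and that of Cnp was at the upstream curated start, not at the start to which its promoter peak belonged. Of the genes with a promoter peak, only Cldn11 had a window at the occupied start.

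Several peaks of these genes lay side by side. Another peak lay within 5 kb of 10 of the 19, namely all 4 of Cnp, the upstream pair of Mbp, the distal pair of Cldn11 and both of Mal, against 10.1% of nuclear peaks. In each case it was a peak of the same gene. Of the 8 members with a peak, 6 had at least 2, against 16% of protein-coding genes with a peak. The share among peaks of genes with at least 2 was not computed, so closeness is not separated from the number of peaks per gene. The paired peaks differed in score by a factor that varied, with 46.5 beside 6.71 at Cnp and 16.1 beside 13.4 at Mbp. The peaks of Mog and Mag stood alone, with the next peak of the list 70396 and 168380 bp away.

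Amplicons of the ChIP-qPCR primers designed for the study were placed on GRCm38 for 5 of the genes. Those for bound sites contained the peak center of Cldn11 at -53 bp, of Mog at -5610 bp and of Opalin at +2805 bp, and began 58 bp from the center of the Mag peak and 86 bp from that of the Mbp promoter peak. None was at the strongest peak of Opalin or of Cldn11. The amplicon for an unbound site at Opalin lay 19151 bp from the closest peak center. The paper reports enrichment over input for every target tested, and no appreciable enrichment with primers for unbound sites.

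Other myelin genes were occupied in part. Of 15 other CNS myelin membrane proteins, 7 were the nearest gene of a peak (46.7%, 95% confidence interval 21.3 to 73.4%), and of 4 proteins of PNS myelin, 2 were (50%, 6.76 to 93.2%), against 14.2% of all protein-coding genes and with intervals that overlap that of the 9 members. The 15 genes had 10 peaks, of which 1 lay in a promoter, against 37.3% of nuclear peaks. The E-box motif was in 9 of the 10, against 60% of nuclear peaks, and in 8 of the 9 distal ones, against 76.7% of distal peaks. The highest were those of Plekhb1 (34.2 at -1020 bp), Cntn2, an axo-glial adhesion protein (28.4 at +4978 bp), Tspan2, a tetraspanin (28.3 at -42806 bp), and Gpm6b (16.04 at -36484 bp). Cntn2 was the only 1 of them with both kinds of peak. Among PNS myelin proteins Pmp22 had a peak of 38.8 at +99801 bp and Prx one of 5.89 at +8813 bp, both with the E-box motif.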

How the data were processed

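Olig2 ChIP and Input Control came from whole spinal cord, 1 sample each, and only the list of Olig2 peaks was used. Per the submitters' processing notes and the paper, the authors aligned reads to mm10 (GRCm38) with BWA, called peaks on pooled experiments with MACS2, and used HOMER for the annotation and the motif search. The peak score of each 51 bp peak was used as deposited, and its scale is not named. The GC and CpG content was deposited as a fraction of each peak, and all 4212 nuclear peaks had the deposited GC fraction in GRCm38.p6. Distances to the TSS are in bp as deposited, and 3 mitochondrial peaks were left out. A second table of 5 peaks repeated the list and was not used. The list gives no read count for single peaks, so the depth behind each is unknown and precision could be given for shares only.

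Peaks were assigned to genes by the deposited nearest gene. Positions were compared with RefSeq GRCm38.p6 gene models, and 3459 of 3463 nearest genes were matched by Entrez number. E-boxes were searched on both strands in 51 and 200 bp, and the search was tested on simulated sequence. Alternatives changed the score required (10 or 20), the assignment (within 50 kb of a TSS, or 10 kb of the gene body), the promoter (within 1 kb) and distal (over 2 kb) limits, the E-box searched and the genes included. Genes named are the 9 members, genes that host a member peak or have a peak within 50 kb of a member, plus, from each of 2 other lists, the 4 or fewer genes that scored highest. Genes that only flank a peak were named after the values were seen, and 1 gene of each list is not reported here. Sequences of Mbp are not reported here. The members and lists were chosen with earlier results of these data known. The analysis used python 3.11.15 with pandas 2.3.3, scipy 1.17.1 and pysam 0.24.0.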

Additional observations from a re-analysis of the deposited data

How the results depend on the processing

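Of 40 alternative values, 31 stayed close to the value reported: shares within its 95% interval, counts within 1.5 times and score differences within 14.8, the SD of the member scores. The promoter and distal limits could not change a value, because promoter peaks of the members lay within 158 bp of a TSS and their distal peaks over 2 kb away. Values under these limits are counted among the 31. The tolerance of 14.8 is wide beside a difference of 0.11, so closeness says little there. The number of genes with a peak fell to 3 at a score of at least 20, where the promoter share was 0%, the E-box motif share 100% and no gene (0) had both kinds. At that score no promoter peak was left, so the score difference has no value. Counting only CAGCTG gave an E-box share of 21.1% in 51 bp and 36.8% in 200 bp, because fewer words count. The promoter minus distal difference in score, 0.11 as reported, reversed to -6.87 at a score of at least 10, to -3.40 without Mbp, and to -16.8 as a mean over the 3 genes with both kinds, and the cause was not tested. No paired analysis was possible because the list has no replicates. The list gives no reads behind single peaks, so a gene without a peak is not shown to be unoccupied.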
